A study of Rattus norvegicus with 24 samples.

Results

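The genes described here build and remodel the interstitial matrix of the rat thyroid: fibrillar and associated collagens, elastic fibre proteins, collagen crosslinking and processing enzymes, small proteoglycans, matricellular proteins, matrix proteases with their inhibitors, and markers of fibroblasts and pericytes. They were taken from a list of 50 gene symbols, and a gene was measured where a probe set of the array carried that symbol and no other. This gave 49 of the 50 genes (Thbs1 had no such probe set) out of 14217 genes with a symbol in the whole series. Thyroid RNA of adult male Sprague-Dawley rats was measured on 24 Affymetrix arrays in 8 groups of 3. At each of day 1 and day 14 the groups were an iodine-deficient diet with perchlorate in the drinking water (95 mg of potassium perchlorate per liter), a normal diet with the same perchlorate water, the deficient diet with normal water, and controls on normal diet and water. Housing lasted 2 months plus the 1 or 14 days, so the diet had been fed for over 2 months at either time and perchlorate had been given for 1 or 14 days. Each value below is log2(intensity + 16) of the brightest probe set of a gene, each ± is the SD over 3 arrays, and each fold change is a difference of group means on that log2 scale with its standard error (SE).

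Perchlorate competes with iodide at the transporter of the follicular cells, while the deficient diet leaves little iodide to be taken up. The gland then makes less hormone, the pituitary releases more thyrotropin, and the gland enlarges. The follicles stand in a stroma of fibroblasts, capillaries and pericytes, and its cells lay down fibrils of collagens I, III and V that are trimmed outside the cell, bound by small proteoglycans and crosslinked by lysyl oxidases. The study was set up to ask how the thyroid responded to 2 months of deficiency and to 1 or 14 days of perchlorate.

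Promoters of 4 of the genes are printed because the genes moved together or failed to: Col5a3, Col6a3 and Fbn1 are 3 of the collagen and microfibril genes with the largest rise after 14 days of perchlorate, and the fibroblast receptor gene Pdgfra did not pass the test. Each runs 5′ to 3′ over 250 bases before and 50 bases after the RefSeq gene start in assembly GRCr8. They lie on the minus strand at chr8:27625899-27626198 for Col5a3, chr9:98886909-98887208 for Col6a3, chr3:133203341-133203640 for Fbn1 and chr14:33408467-33408766 for Pdgfra. Capitals mark matches on either strand to CAGAC, the core of the Smad binding element, and to GGGCGG, the GC box, and the matches overlapped at 0 places.
Col5a3: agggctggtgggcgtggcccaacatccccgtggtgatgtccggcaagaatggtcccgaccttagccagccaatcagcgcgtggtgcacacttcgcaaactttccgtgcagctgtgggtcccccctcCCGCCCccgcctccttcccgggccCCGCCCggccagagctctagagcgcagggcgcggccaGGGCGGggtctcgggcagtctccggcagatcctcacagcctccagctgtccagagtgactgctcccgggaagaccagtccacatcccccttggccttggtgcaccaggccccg
Col6a3: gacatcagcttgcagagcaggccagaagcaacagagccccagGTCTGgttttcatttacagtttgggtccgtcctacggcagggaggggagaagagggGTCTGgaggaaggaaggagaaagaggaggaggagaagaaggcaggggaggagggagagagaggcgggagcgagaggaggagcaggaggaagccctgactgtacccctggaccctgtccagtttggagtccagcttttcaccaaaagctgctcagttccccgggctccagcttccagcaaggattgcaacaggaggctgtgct
Fbn1: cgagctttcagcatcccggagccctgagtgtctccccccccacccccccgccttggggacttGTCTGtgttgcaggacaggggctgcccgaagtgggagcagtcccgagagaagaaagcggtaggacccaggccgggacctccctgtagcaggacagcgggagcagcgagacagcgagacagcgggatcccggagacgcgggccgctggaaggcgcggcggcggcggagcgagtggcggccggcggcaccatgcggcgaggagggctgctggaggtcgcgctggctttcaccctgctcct
Pdgfra: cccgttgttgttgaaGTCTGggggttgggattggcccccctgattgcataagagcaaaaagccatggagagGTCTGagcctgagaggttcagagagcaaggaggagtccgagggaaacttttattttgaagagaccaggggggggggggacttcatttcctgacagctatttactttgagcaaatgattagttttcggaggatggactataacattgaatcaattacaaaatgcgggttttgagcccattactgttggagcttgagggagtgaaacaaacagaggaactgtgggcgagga
The Col5a3 window held 3 GC boxes and 0 CAGAC matches, while Col6a3 held 2 CAGAC matches, Fbn1 held 1 and Pdgfra held 2, none of these 3 with a GC box. RefSeq promoters were found for 31 of the 50 genes. CAGAC was present in 61.3% of those 31 windows, against 50.1% of all 33469 windows of the same length, and GGGCGG in 61.3% against 33.1%. Among the genes that rose with 14 days of perchlorate, 7 of 11 windows held CAGAC (63.6%) and 5 of 11 held GGGCGG (45.5%). Among the measured genes that did not pass the test there, 12 of 19 held CAGAC (63.2%) and 13 of 19 held GGGCGG (68.4%). These matches describe letters in a window, and no test was made of them.

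Arrays of the same group correlated at 0.851 to 0.980 over the 18625 probe sets that passed the filter on dim signals (median 0.973), and 0 pairs of arrays were identical. The array farthest from the median of all other arrays, whatever their group, was perchlorate replicate 18 of day 1, with a median absolute deviation of 0.692. Control replicate 22 of day 1 came next at 0.277, against 0.121 to 0.201 on the other 22 arrays. Leaving out both arrays kept the count of genes called at 0 for perchlorate and for the diet at day 1 and at 1 for diet plus perchlorate at day 1, and other counts without them stand beside their results. The labels do not say that the samples of a group came from separate animals; the spread behind each p-value is that of these samples and could be technical in part. Of the 11 measured follicular cell markers, 10 passed the filter on dim signals in this tissue. All 49 matrix and fibroblast genes passed it as well, the closest being Fbln1, whose mean of 6.19 was just above the filter level of 6.19.

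**Figure D1:**
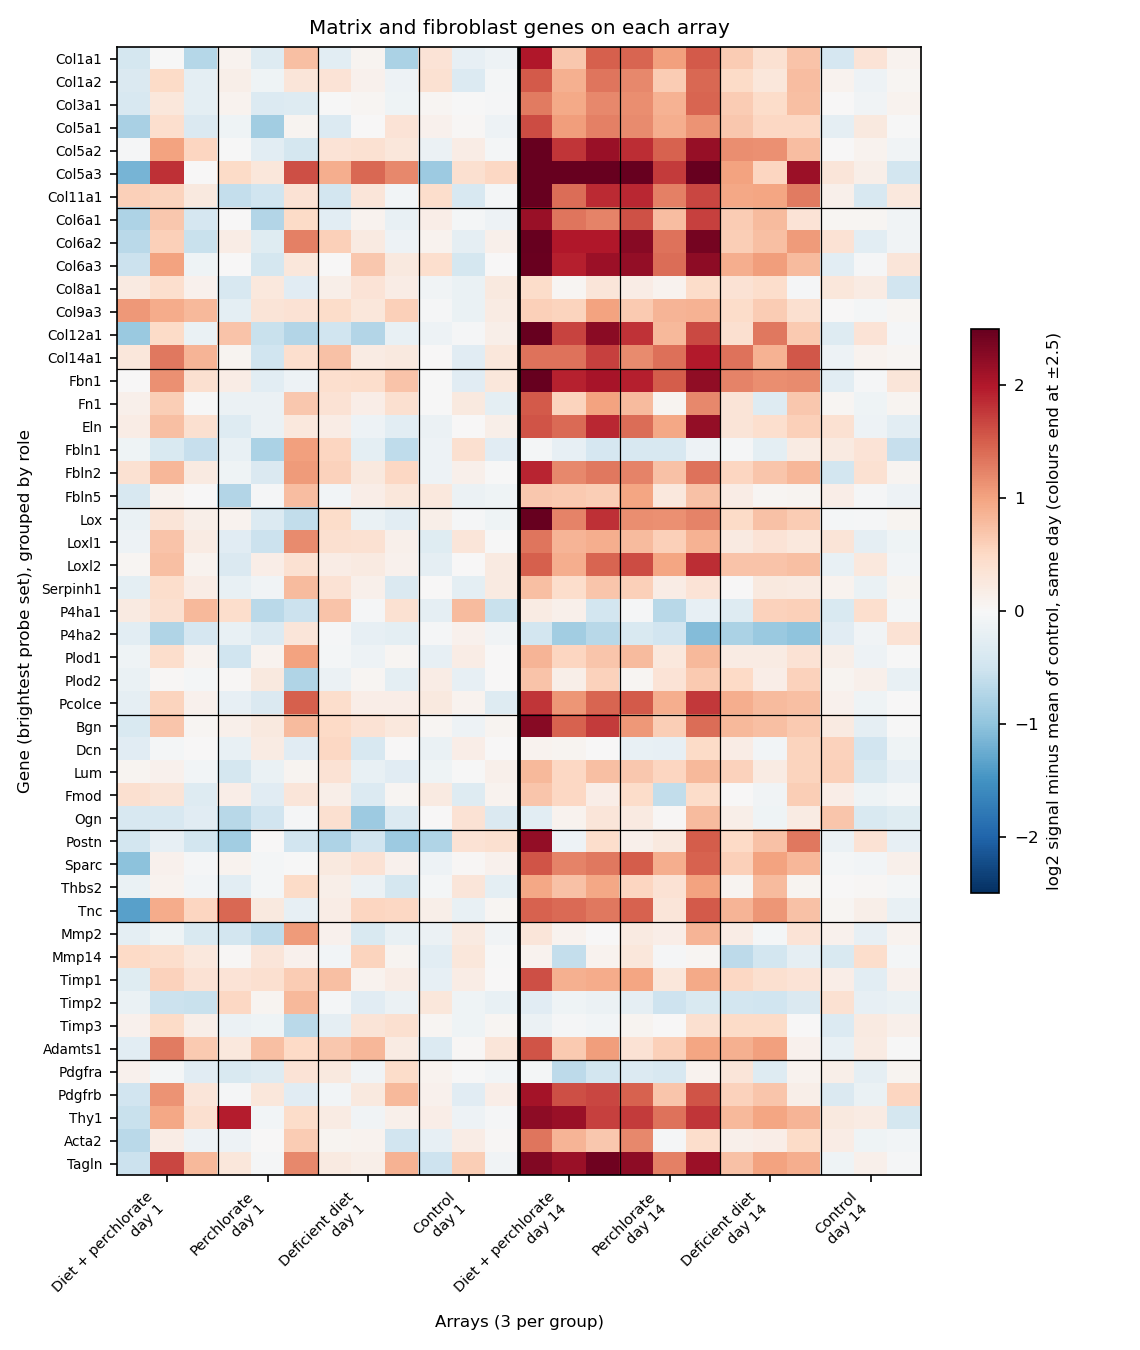
Colours give the log2 signal of each gene (rows, grouped by role) on each array (columns, 3 per group) minus the control mean of the same day. The day 14 columns of diet plus perchlorate and of perchlorate alone are red for most collagens, while Dcn, Pdgfra and Timp3 stay pale and P4ha2 is blue.

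Perchlorate for 14 days against control asks what the anion alone did. Matrix genes rose broadly: 24 of the 49 were higher at an adjusted p under 0.05 (limma, Benjamini-Hochberg over all 18625 probe sets tested) and 0 were lower, where 2.9% of all probe sets were called higher and 0.671% lower. All 7 fibrillar collagens and 6 of 7 other collagens were called higher, and none of the 6 proteases and inhibitors was called. Roles were not tested against each other. The mean deviation of the protease and inhibitor genes from their 24-array means was -0.02 to 0.37 on perchlorate arrays, above the -0.15 to -0.07 on control arrays. The median difference over the 49 genes was 0.79, against -0.04 over all 10643 genes tested. The list was chosen with earlier results of these data known, so here and below its counts are not those of an independently chosen set. Arrays of the groups did not overlap for 34 genes that were higher and 2 that were lower, against 12.6% and 13.4% of all probe sets. The count fell to 11 without perchlorate replicate 39, to 10 without replicate 42 and to 15 without control replicate 47, and it was 29 (28 higher, 1 lower) without the arrays of day 1 that stood apart. Under every alternative setting and with any 1 array left out, 10 of the 24 calls held: Col3a1, Col5a2, Col11a1, Col6a2, Col6a3, Col14a1, Fbn1, Eln, Loxl2 and Sparc.

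**Figure D2:**
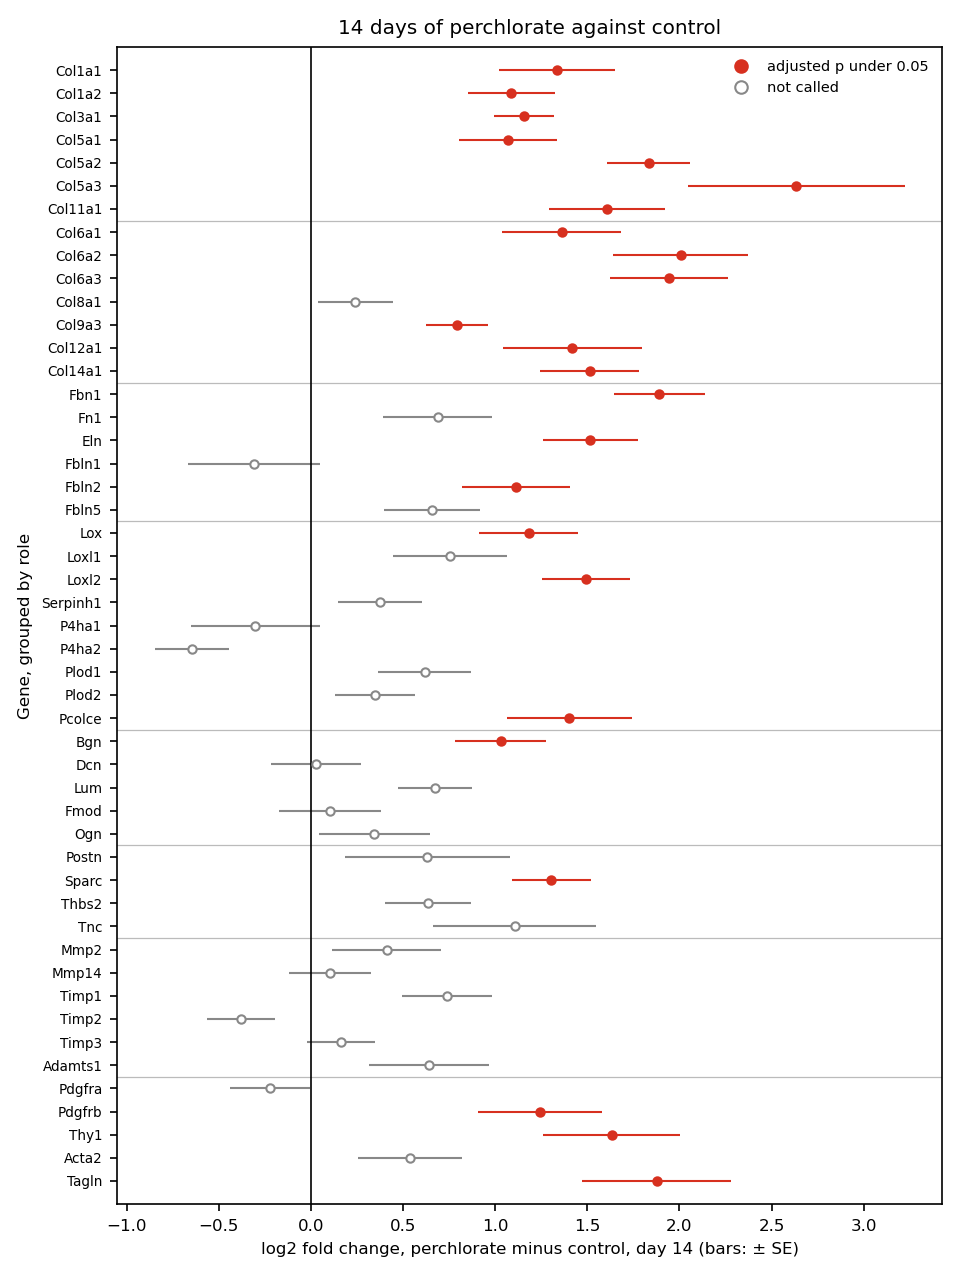
Points give the log2 fold change of each gene for 14 days of perchlorate over control, bars its SE, and filled red points an adjusted p under 0.05. All fibrillar collagens in the top block lie to the right of 1, and P4ha2, Timp2, Fbln1, P4ha1 and Pdgfra lie left of 0.

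Perchlorate replicate 40 was the lowest of its 3 arrays for 43 of the 49 genes, and replicate 42 the highest for 35. The mean deviation of the 49 genes from their 24-array means was 0.57 on perchlorate replicate 39, 0.14 on replicate 40 and 0.74 on replicate 42, against -0.36, -0.40 and -0.43 on the control arrays. The SD of these means was 0.31 over the perchlorate arrays and 0.03 over the control arrays, and all 3 perchlorate arrays stood above all 3 controls.

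The fibrillar collagens carry the tensile strength of the matrix. Col5a2, a chain of collagen V, which sets the diameter of collagen fibrils, stood at 11.86, 11.50 and 12.21 on the perchlorate arrays and at 10.03, 10.11 and 9.94 on the control arrays. Its rise of 1.83 (SE 0.23, adjusted p = 8e-05) was 3.56-fold. Col5a3, the third chain of that collagen, read 7.79, 6.55 and 7.99 with perchlorate against 5.11, 4.96 and 4.35 in controls. It had the largest log2 fold change of the 49, at 2.63 (SE 0.59, adjusted p = 0.0135), but it was dim in controls, so the size depended on the offset added before the log: over the alternatives it ran from 1.56 to 3.72, and the call was lost without perchlorate replicate 39 or 42 or control replicate 47.

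Col11a1, a minor fibrillar chain that forms the core of fibrils, was at 7.90, 7.28 and 7.69 with perchlorate and at 6.15, 5.61 and 6.29 in controls, a rise of 1.61 (SE 0.32, adjusted p = 0.0055). Col3a1, the chain of the thin reticular fibrils of soft organs, was at 13.14, 12.86 and 13.44 with perchlorate and at 11.99, 11.91 and 12.07 in controls. Both sets of 3 were tight, and the rise of 1.16 (SE 0.16, adjusted p = 0.000372) was 2.23-fold. The chains of collagen I, the main fibril collagen, rose too. Col1a1 was at 10.33, 9.89 and 10.41 with perchlorate and at 8.46, 9.21 and 8.96 in controls, a rise of 1.33 (adjusted p = 0.0185). Col1a2 was at 12.47, 11.91 and 12.71 with perchlorate and at 11.36, 11.14 and 11.32 in controls, a rise of 1.09 (adjusted p = 0.0112). Col5a1, the chain shared by most collagen V, rose by 1.07 (adjusted p = 0.0248). Col3a1 and Col5a2 are direct neighbours on chromosome 9, with 0 protein-coding genes between them in the RefSeq table, and both rose.

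Among the other collagens, collagen VI forms beaded filaments around cells. Its chains Col6a1 and Col6a2, direct neighbours on chromosome 20, rose by 1.36 and 2.01. On the arrays Col6a2 read 9.43, 8.51 and 9.53 with perchlorate against 7.51, 6.88 and 7.05 in controls (SE 0.37, adjusted p = 0.00305, 4.02-fold). Col6a3 was at 12.14, 11.34 and 12.17 with perchlorate and at 9.67, 9.91 and 10.24 in controls, a rise of 1.94 (SE 0.32, adjusted p = 0.00133). Every perchlorate array of both genes stood clear of every control array.

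Col14a1 and Col12a1 encode collagens that coat the surface of fibrils. Col14a1 was at 10.64, 10.83 and 11.43 with perchlorate and at 9.32, 9.54 and 9.50 in controls, a rise of 1.51 (SE 0.27, adjusted p = 0.00244). A second Col14a1 probe set gave 0.88 and did not pass (adjusted p = 0.192). Col12a1 rose by 1.42 (adjusted p = 0.0391), a call lost with values as deposited, with no filter on dim probe sets, and without any 1 array other than perchlorate replicate 40. Col9a3, a chain of collagen IX, which is best known from cartilage, was at 9.44, 9.64 and 9.65 with perchlorate and 8.79, 8.73 and 8.82 in controls, a rise of 0.79 (SE 0.17, adjusted p = 0.00977). Of the other cartilage markers, 11 were measured and 10 lay below the filter, among them Col2a1, Acan, Comp, Matn1 and Hapln1, while the 1 tested was not called at -0.16. Col8a1, a short-chain collagen of vessel walls, did not pass at 0.24 (adjusted p = 0.718) and its arrays overlapped.

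Elastic fibres are built of elastin on a scaffold of fibrillin microfibrils. Fbn1, the main fibrillin, was at 11.19, 10.78 and 11.47 with perchlorate and at 9.0, 9.22 and 9.55 in controls, and the rise of 1.89 (SE 0.25, adjusted p = 0.00017) was 3.71-fold. Elastin itself, Eln, was at 8.04, 7.61 and 8.83 with perchlorate against 7.03, 6.53 and 6.38 in controls, a rise of 1.52 (SE 0.26, adjusted p = 0.00168). Fbln2, a glycoprotein of microfibrils, rose by 1.11 (adjusted p = 0.0351), a call that did not hold under every alternative setting of the processing. The other 3 did not pass: the adhesive glycoprotein Fn1 at 0.69 (adjusted p = 0.268), Fbln5 at 0.66 and Fbln1 at -0.31. Fbln1 read 5.80, 5.79 and 6.08 with perchlorate and 6.43, 6.55 and 5.61 in controls, so its groups overlapped.

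Of the 9 enzymes and processing proteins, 3 rose. Outside the cell, the lysyl oxidases crosslink collagen and elastin, and Pcolce speeds the removal of the procollagen C-propeptide. Loxl2 was at 9.21, 8.56 and 9.42 with perchlorate and at 7.39, 7.83 and 7.50 in controls, a rise of 1.49 (SE 0.24, adjusted p = 0.00116). Lox was at 9.52, 9.50 and 9.61 with perchlorate and at 8.32, 8.33 and 8.43 in controls, a rise of 1.18 (SE 0.27, adjusted p = 0.0155) with little spread in either group. Pcolce rose by 1.40 (adjusted p = 0.0213), and Loxl1 did not pass at 0.76 (adjusted p = 0.228).

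Inside the cell, the prolyl and lysyl hydroxylases and the collagen chaperone Serpinh1 prepare the chains, and none of these 5 genes was called. Serpinh1 stood at 0.37 (adjusted p = 0.523), Plod1 at 0.62 and Plod2 at 0.35. P4ha2, a catalytic subunit of prolyl 4-hydroxylase, was lower on every array, at 10.60, 10.51 and 9.90 with perchlorate and 10.71, 10.89 and 11.35 in controls, but its difference of -0.65 (SE 0.20) missed the threshold (adjusted p = 0.0825). Its counterpart P4ha1 read 9.41, 8.74 and 9.23 with perchlorate and 9.05, 9.85 and 9.39 in controls, with overlap and a difference of -0.30 (adjusted p = 0.83).

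Small leucine-rich proteoglycans bind collagen fibrils and space them. Only Bgn (biglycan) of 5 rose, by 1.03 (SE 0.25, adjusted p = 0.0204), with 10.13, 9.67 and 10.44 on the perchlorate arrays and 9.27, 8.83 and 9.05 on the control arrays. That call was lost without perchlorate replicate 39 or 42 or without control replicate 44 or 47. Decorin, Dcn, a close relative of biglycan, was at 12.68, 12.64 and 13.33 with perchlorate and at 13.43, 12.38 and 12.75 in controls, a difference of 0.03 (SE 0.24, adjusted p = 0.988). Its direct neighbour on chromosome 7, Lum, had 0.67 (adjusted p = 0.0683), and Fmod and Ogn had 0.10 and 0.34. The groups overlapped for Dcn, Lum, Fmod and Ogn.

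Matricellular proteins modulate how cells meet the matrix. Sparc, a collagen-binding member, was at 12.001, 11.40 and 11.97 with perchlorate and at 10.43, 10.42 and 10.61 in controls, a rise of 1.30 (SE 0.22, adjusted p = 0.00143). The other 3 did not pass: Tnc at 1.11 (SE 0.44, adjusted p = 0.216), Thbs2 at 0.64 and Postn at 0.63. The arrays of Postn overlapped, and its SE of 0.45 was wide like that of Tnc.

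Matrix proteases and their inhibitors gave 0 calls of 6, and 33 of the 49 genes (against 2684 of all 18625 probe sets) had an unadjusted p under 0.05 in this comparison. Timp1, an inhibitor of matrix metalloproteinases, was nearest to the threshold: it was at 8.96, 8.26 and 8.92 with perchlorate and at 8.14, 7.72 and 8.08 in controls, a difference of 0.74 (SE 0.25, adjusted p = 0.112). Timp2 was lower on every array, with 10.82, 10.53 and 10.66 against 11.42, 10.84 and 10.88 in controls, at -0.38 (adjusted p = 0.351). The gelatinase gene Mmp2 had 0.41, Adamts1 0.64 and Timp3 0.16. Mmp14, a membrane-bound collagenase, read 10.18, 9.87 and 9.95 with perchlorate and 9.51, 10.34 and 9.84 in controls, a difference of 0.10 with overlap.

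Of the 5 cell markers, Tagln, an actin-binding protein of smooth muscle and myofibroblasts, was at 10.76, 9.77 and 10.65 with perchlorate against 8.42, 8.65 and 8.48 in controls, a rise of 1.88 (SE 0.41, adjusted p = 0.011). Thy1, a surface protein of many fibroblasts, was at 10.99, 10.59 and 11.02 with perchlorate and at 9.47, 9.44 and 8.79 in controls, a rise of 1.63 (SE 0.37, adjusted p = 0.0151). Both calls were lost without perchlorate replicate 39 or 42, and that of Thy1 also without control replicate 47. Pdgfrb, the receptor of pericytes and fibroblasts, rose by 1.24 (adjusted p = 0.0416), a call that did not hold under every alternative setting of the processing. The other platelet-derived growth factor receptor gene, Pdgfra, was at 9.79, 9.73 and 10.23 with perchlorate and 10.29, 9.92 and 10.21 in controls, a difference of -0.22 (SE 0.22, adjusted p = 0.773). Acta2, the smooth muscle actin, had 0.54 (adjusted p = 0.416) with overlap. Thy1 and Pdgfrb were thus called, neither of them under every alternative run, while Pdgfra did not pass the test. Whether the receptors differ from each other was not tested.

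**Figure D3:**
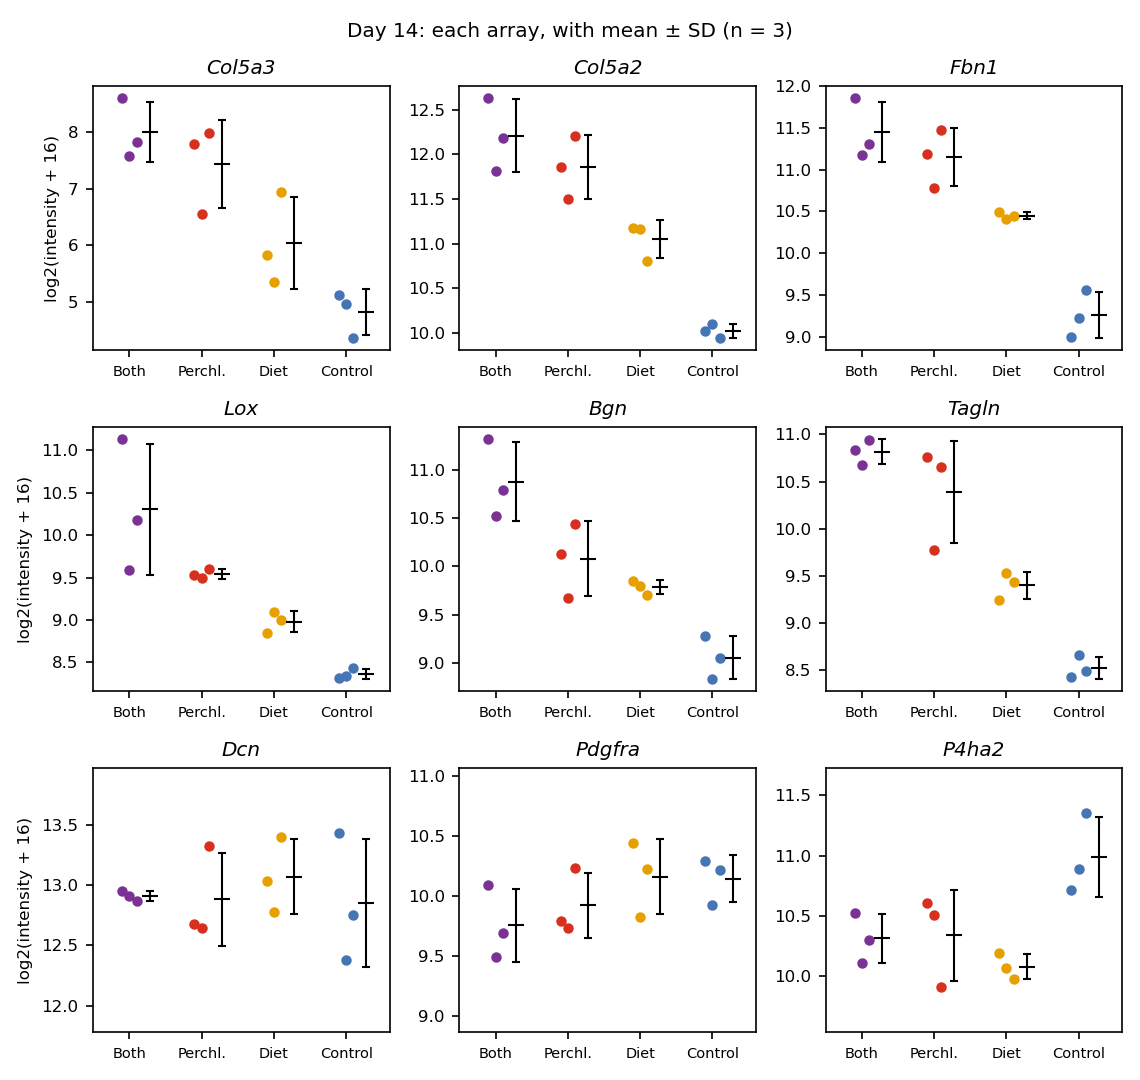
Dots are the 3 arrays of each day 14 group (diet plus perchlorate, perchlorate, deficient diet, control), with mean and SD beside them, in log2(intensity + 16) on an axis of its own for each gene. Col5a3, Col5a2, Fbn1, Lox, Bgn and Tagln step down from left to right, the groups of Dcn and Pdgfra overlap, and the control arrays of P4ha2 are highest.

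The same 3 control arrays serve for the deficient diet at day 14, so its values are not independent of those above. Fbn1 rose, 1 of 49 genes, with 0 lower, where 0.193% of all probe sets were called higher and 0.0268% lower. Fbn1 was at 10.50, 10.41 and 10.45 on the diet arrays against 9.0, 9.22 and 9.55 in controls, a rise of 1.19 (SE 0.25, adjusted p = 0.0436). The call was lost when any 1 of the 6 arrays was left out, with adjusted p up to 0.189, and a second Fbn1 probe set gave 0.93 (adjusted p = 0.0878). The median over the 49 genes was 0.50, against -0.03 over all genes tested. Diet arrays lay above all control arrays for 28 genes and below them for 2, against 10.6% and 11.2% of all probe sets. Of the 49 genes 23 had an unadjusted p under 0.05, against 1772 of all 18625 probe sets.

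Just past the threshold stood Col14a1, at 10.82, 10.31 and 11.01 on the diet arrays, a difference of 1.26 (SE 0.27, adjusted p = 0.0505), and Col5a2, at 11.18, 11.16 and 10.80, a difference of 1.03 (SE 0.23, adjusted p = 0.0515). P4ha2 was at 10.19, 10.07 and 9.98, a difference of -0.91 (SE 0.20, adjusted p = 0.0515). Each of these 3 genes kept the diet arrays apart from the control arrays. Col5a3 read 5.82, 5.35 and 6.95 with the diet, a difference of 1.23 with an SE of 0.59 (adjusted p = 0.519), and Col9a3 read 9.25, 9.41 and 9.17, a difference of 0.50 (adjusted p = 0.261). In a fit of only the diet and control arrays 14 genes were called, 13 of them higher, with array weights 12 were, and without the day 1 arrays that stood apart 4 were.

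Averaged over both days, the diet raised 3 of the 49 genes, where 0.8% of all probe sets were called higher and 0.226% lower. These were Fbn1 by 0.86 (SE 0.18, adjusted p = 0.0211), Col14a1 by 0.83 (adjusted p = 0.0376) and Col5a2 by 0.68 (adjusted p = 0.043). Between 0 and 2 genes were called when 1 array was omitted, and second probe sets of Col14a1 and Col5a2 did not pass (0.72 and 0.57, adjusted p = 0.172 and 0.0634). At day 1, after the diet had already been fed for 2 months, 0 genes were called, against 0.043% of all probe sets higher and 0.0107% lower. There 2 genes had an unadjusted p under 0.05, against 1090 of all 18625 probe sets. Fbn1 was at 9.85, 9.87 and 10.15 with the diet at day 1, against 9.42, 9.16 and 9.72 in day 1 controls, and Col9a3 at 9.49, 9.32 and 9.63 against 9.0, 8.86 and 9.23. The difference was 0.52 for Fbn1 and 0.45 for Col9a3. The diet difference at day 14 minus that at day 1, a contrast added after seeing the data, gave 0 calls. It had 7 genes at an unadjusted p under 0.05, against 502 of all 18625 probe sets.

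Diet plus perchlorate at day 14, again against the same controls, raised 31 of the 49 genes and lowered 1, where 6.1% of all probe sets were called higher and 2.75% lower. By role these were 7 of 7 fibrillar collagens, 6 of 7 other collagens, 4 of 6 elastic fibre and adhesive glycoproteins, 2 of 5 small proteoglycans, 2 of 4 matricellular proteins, 2 of 6 proteases and inhibitors and 4 of 5 cell markers. The enzymes gave 4 higher and 1 lower of 9. The median of the 49 genes was 1.14, against -0.06 over all genes tested, and arrays did not overlap for 35 genes that were higher and 1 that was lower, against 16.2% and 20.7% of all probe sets. The count ran from 23 to 29 when 1 array was left out and was 37 without the arrays of day 1 that stood apart. Of the 32 calls, 22 held under every alternative run.

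The 4 largest differences were those of Col5a3, Tagln, Col6a2 and Col12a1, followed by Fbn1, Col5a2 and Col6a3. Col5a3 was at 8.60, 7.58 and 7.82 with diet plus perchlorate against 5.11, 4.96 and 4.35 in controls, a rise of 3.19 (SE 0.59, adjusted p = 0.00141). Its control mean lay below the filter level, as given above. Tagln was at 10.83, 10.68 and 10.95 (a rise of 2.30), Col6a2 at 9.90, 9.15 and 9.16 (2.25) and Col6a3 at 12.41, 11.87 and 12.08 (2.18). Fbn1 was at 11.86, 11.18 and 11.31, and its rise of 2.19 (SE 0.25, adjusted p = 1.53e-05) was 4.57-fold. Col5a2 was at 12.63, 11.81 and 12.18, also a rise of 2.19 (SE 0.23, adjusted p = 6.17e-06). Col12a1 rose by 2.21 (adjusted p = 0.000847) and Lox by 1.94 (adjusted p = 0.000114). Replicate 27 was the highest of the 3 arrays of diet plus perchlorate for 41 of the 49 genes, among them Lox, which read 11.13, 9.59 and 10.18.

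Several genes that missed the threshold with perchlorate alone passed it with both treatments. Timp1 was at 9.59, 8.86 and 8.91, a rise of 1.14 (adjusted p = 0.00466), beside 0.74 with perchlorate alone. The same held for Fn1 at 1.03, Loxl1 at 1.04, Thbs2 at 0.89, Lum at 0.69, Adamts1 at 1.09 and Acta2 at 0.95, each with an adjusted p of 0.0191 to 0.0378. A call in one group and not in another does not show a difference, and the direct contrast of diet plus perchlorate with perchlorate alone called 0 of the 49 genes. Lum overlapped with its controls, at 13.19, 12.90 and 13.13 against 12.96, 12.003 and 12.16. P4ha2 fell by 0.67 (SE 0.20, adjusted p = 0.0378), with 10.52, 10.11 and 10.30 against 10.71, 10.89 and 11.35 in controls, but a second probe set gave -0.62 (adjusted p = 0.159) and the call was lost in 7 of 14 alternatives. Neither treatment with perchlorate gave a call for Dcn, Pdgfra, Mmp2, Mmp14, Timp2 or Fbln1: with both treatments Dcn had 0.06, Pdgfra -0.39, Mmp2 0.14, Mmp14 -0.14, Timp2 -0.18 and Fbln1 -0.22. A second Mmp14 probe set had the other sign with both treatments, at 0.75 (adjusted p = 0.123).

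Perchlorate was also set against normal water within the deficient diet at day 14. The fold changes of this comparison use none of the control arrays, but its SE and p-values rest on a spread estimated over all 24 arrays. Col5a2 rose by 1.16 (SE 0.23, adjusted p = 0.0353), at 12.63, 11.81 and 12.18 with diet plus perchlorate against 11.18, 11.16 and 10.80 with the diet alone. Lox rose by 1.32 (SE 0.27, adjusted p = 0.0428), at 11.13, 9.59 and 10.18 against 8.84, 9.09 and 9.0, though a second Lox probe set gave 1.22 (adjusted p = 0.16). These were 2 of 49 genes, where 0.129% of all probe sets were called higher and 0.0805% lower, and the count was 0 without diet plus perchlorate replicate 27 or 30 or any of the 3 diet arrays, and 5 without the day 1 arrays that stood apart. The arrays did not overlap for 29 genes that were higher and 1 that was lower, against 11.7% and 13% of all probe sets, and the median of the 49 genes was 0.57 against -0.02 over all genes tested. The lowest adjusted p after these were those of Eln at 1.18 (0.0625) and Bgn at 1.09 (0.0703).

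Adding the diet to perchlorate at day 14 gave 0 calls among the 49 genes (smallest adjusted p 0.9998), where 0% of all probe sets were called higher and 0.00537% lower. The mean with both treatments was above that with perchlorate alone for 38 of the 49 genes, a description with no test. There 3 genes had an unadjusted p under 0.05, against 483 of all 18625 probe sets. Of those 3, Bgn had 0.80 (SE 0.25, unadjusted p = 0.00397), Lox 0.76 and Col12a1 0.79. The diet set directly against perchlorate also gave 0 calls, against 0.00537% of all probe sets higher and 0% lower. There the arrays did not overlap for 16 genes, all lower with the diet, against 7.03% of all probe sets lower and 7.19% higher. Of the 49 genes 17 had an unadjusted p under 0.05, against 693 of all 18625 probe sets. The interaction of diet and perchlorate at day 14 gave 0 calls of 49, with 10 at an unadjusted p under 0.05 (580 of all 18625 probe sets) and 0% of all probe sets called higher and 0.0161% lower. Its smallest unadjusted p was that of Col14a1, whose interaction was -1.29 (unadjusted p = 0.00273). Col14a1 read 10.81, 10.81 and 11.17 with diet plus perchlorate, close to its values with either treatment alone.

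The 4 group means of day 14 ran in the order diet plus perchlorate, perchlorate, diet, control from high to low for 29 of the 49 genes, a description with no test. Control was lowest for 42, diet plus perchlorate highest for 33, and the diet mean lay between perchlorate and control for 36. Between neighbours in this order, the step from diet plus perchlorate to perchlorate gave 0 calls, that from perchlorate to diet 0 and that from diet to control 1. Arrays did not overlap for 16 genes lower with the diet than with perchlorate, and for 28 genes higher with the diet than in controls, as given above.

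Time was the next axis. After 1 day of perchlorate 0 of the 49 genes were called against day 1 controls (0% of all probe sets). An unadjusted p under 0.05 was found for 2, Timp2 at 0.47 and Thy1 at 0.79, against 1888 of all 18625 probe sets. The median was 0.01, and arrays did not overlap for 2 genes, both higher, against 2.92% of all probe sets higher and 4.21% lower. Thy1 was at 11.16, 9.14 and 9.65 with perchlorate at day 1 against 9.37, 9.07 and 9.16 in day 1 controls, so replicate 15 alone stood above the controls by a wide margin. A list of 3 tested lymphocyte markers had mean deviations of 3.70, -0.73 and 2.62 on perchlorate replicates 15, 16 and 18 of day 1. In day 1 controls that list ran from -0.74 to -0.23, and its part in the Thy1 values was not tested. Diet plus perchlorate for 1 day raised 1 gene, Col9a3, where 0.446% of all probe sets were called higher and 0.156% lower. Col9a3 was at 10.12, 9.95 and 9.84 against 9.0, 8.86 and 9.23 in day 1 controls, a rise of 0.94 (SE 0.17, adjusted p = 0.00711), and the call was lost when the other groups were left out of the fit (adjusted p = 0.104). Within the deficient diet, 1 day of perchlorate gave 0 calls of 49 genes, with 2 at an unadjusted p under 0.05 (1087 of all 18625 probe sets), where 0% of all probe sets were called higher and 0.00537% lower.

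The effect of perchlorate after 14 days exceeded that after 1 day in 5 genes, by a test of the difference, and fell short of it in 0, where 0.489% of all probe sets were called higher and 0.0644% lower. For Col5a2 the difference of effects was 2.07 (SE 0.32, adjusted p = 0.00349): its perchlorate arrays stood at 10.31, 10.07 and 9.88 at day 1, against 10.18, 10.51 and 10.28 in the controls of that day. Fbn1 had 1.97 (adjusted p = 0.0101), with 9.61, 9.16 and 9.30 on the perchlorate arrays of day 1, against 9.42, 9.16 and 9.72 in controls. Col3a1 had 1.35 (adjusted p = 0.00752). These 3 held under every alternative run, while Col6a3 at 1.99 and Eln at 1.59 (adjusted p = 0.0477 for both) were lost in 11 and 14 of 20. The count was 7 without the pair of day 1 arrays that stood apart, 10 without perchlorate replicate 18 of day 1 alone, 8 without perchlorate replicate 40 and 3 without any 1 of 7 other arrays. For diet plus perchlorate the same contrast, added after seeing the data, gave 0 calls, with 27 genes at an unadjusted p under 0.05 (1625 of all 18625 probe sets) and 0% of all probe sets called in either direction. The count was 13 without replicate 3 of day 1 and 4 without replicate 29 of day 14.

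**Figure D4:**
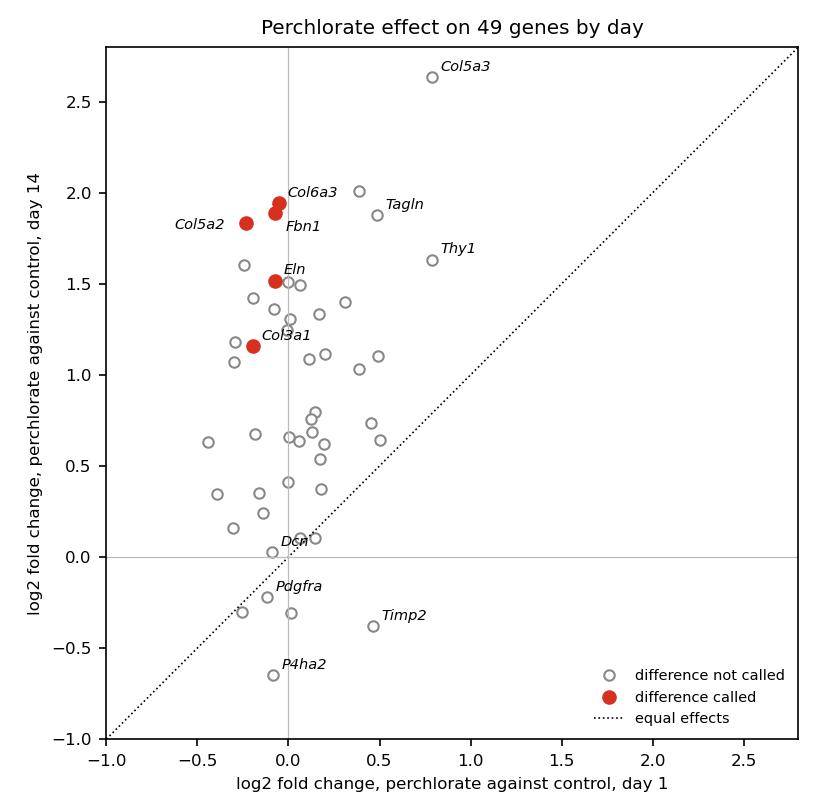
Each point is a gene, with the log2 fold change of perchlorate over control at day 1 on the x axis and at day 14 on the y axis, and filled points mark genes whose effects differed between the days at an adjusted p under 0.05. Col5a2, Fbn1, Col6a3, Eln and Col3a1 lie near 0 at day 1 and between 1.16 and 1.94 at day 14.

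Within single treatments, 14 days against 1 day of perchlorate gave 15 genes higher and 0 lower, where 3.68% of all probe sets were called higher and 1.49% lower. The count was 9 without perchlorate replicate 42 of day 14 and 21 without replicate 18 of day 1 (also without both arrays that stood apart), and 0 when the other groups were left out of the fit. Diet plus perchlorate gave 18 higher and 0 lower, where 1.33% were called higher and 0.494% lower, led by Bgn at 1.74 (adjusted p = 0.00208) and Sparc at 1.63 (adjusted p = 0.00121), the 2 calls that held under every alternative. That count fell to 2 without replicate 2 of day 1, to 10 without replicate 6 of day 1, to 3 without replicate 27 of day 14 and to 11 without replicate 30 of day 14, and it was 30 without the day 1 arrays of other groups that stood apart. Controls at day 14 against day 1 gave 0 calls of 49 and 0 genes at an unadjusted p under 0.05 (765 of all 18625 probe sets), where 0% of all probe sets were called. The diet at day 14 against day 1 also gave 0 calls, with 7 at an unadjusted p under 0.05 (663 of all 18625 probe sets) and 0.00537% of all probe sets called higher and 0% lower.

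Genes of transforming growth factor beta and platelet-derived growth factor signalling, which drive matrix production in fibroblasts, were followed as a list of 26, of which 22 were measured and 19 passed the filter. With perchlorate for 14 days 4 of the 19 rose and 0 fell, where 2.9% of all probe sets were called higher and 0.671% lower. The median of the list was 0.20. Tgfb3, a ligand, rose by 1.15 (SE 0.19, adjusted p = 0.00118), Tgfb2, another ligand, by 0.98 (adjusted p = 0.027), the latent ligand binding protein gene Ltbp2 by 1.69 (adjusted p = 0.0349) and Skil, which encodes a repressor of Smad signalling, by 0.65 (adjusted p = 0.0208). The receptor Tgfbr1 had 0.16, the signal carriers Smad2 and Smad3 had 0.20 and 0.25, and the target gene Ccn2 had 0.18, none of them called. Tgfb1 was below the filter. With diet plus perchlorate 6 of 19 rose, Tgfb3 by 1.49, Ltbp2 by 2.01, Tgfb2 by 1.18, Skil by 0.70, Smad7 by 0.94 and Inhba by 0.89. There 6.1% of all probe sets were called higher and 2.75% lower. The diet alone gave 0 at day 14, against 0.193% of all probe sets higher and 0.0268% lower. Tgfb3 was also higher with perchlorate within the deficient diet, by 0.89 (SE 0.19, adjusted p = 0.0477).

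Of 51 further genes of the matrix, collagen folding and processing, 35 passed the filter. With perchlorate 4 rose, Aspn by 2.04 (adjusted p = 0.00944), Col18a1 by 1.71, Fap by 1.13 and Col15a1 by 1.09, and Efemp1 fell by 1.40 (adjusted p = 0.0227). Of all probe sets 2.9% were called higher and 0.671% lower in that comparison. Aspn encodes the proteoglycan asporin, Col18a1 and Col15a1 collagens of basement membranes, Fap a protease of activated fibroblasts, and Efemp1 a fibulin. With diet plus perchlorate 7 of 35 rose, Col18a1 by 2.72 among them, and Efemp1 fell by 1.28, against 6.1% of all probe sets higher and 2.75% lower. The diet gave 0 calls at day 14, and over both days Matn2, a matrilin, fell by 0.93 (adjusted p = 0.0272).

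Whole glands were measured, so a change in the number of cells of a type and a change in RNA per cell cannot be told apart. Markers of other stromal and blood-borne cells moved with the matrix genes at day 14. With perchlorate 2.9% of all probe sets were called higher and 0.671% lower, shares to set beside each count in this paragraph. Of 12 tested markers of pericytes and smooth muscle 4 rose with perchlorate, Rgs5 by 2.13, Mcam by 1.71, Cnn1 by 1.07 and Abcc9 by 1.03. The list's mean deviation ran from 0.06 to 0.62 on the perchlorate arrays and from -0.70 to -0.40 on the control arrays. Endothelial markers gave 6 of 14 higher, with Vwf at 2.12, and ran from 0.25 to 0.73 against -0.64 to -0.35. Macrophage and mast cell markers gave 5 of 13 higher, and ran from 0.29 to 1.22 against -0.70 to -0.28. Proliferation genes gave 6 of 15 higher, with Mki67 at 2.35, and ran from 0.27 to 0.59 against -1.04 to -0.62. On each of these lists every perchlorate array lay above every control array, and their part in the matrix result was not tested.

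Other fibroblast markers gave 1 of 13 higher with perchlorate, Vim at 1.56, where 2.9% of all probe sets were called higher and 0.671% lower. Their list ran from -0.004 to 0.53 on perchlorate arrays against -0.30 to -0.03 on control arrays. With diet plus perchlorate Dpp4 at 1.77, S100a4 at 1.30 and Lsp1 at 0.93 rose as well, where 6.1% of all probe sets were called higher. With perchlorate alone follicular cell markers gave 2 of 10 higher, Slc5a5, the iodide transporter, at 1.52 and Cdh16 at 1.00, and ran from -0.07 to 0.17 against -0.35 to -0.12. C cell markers gave 0 of 11 called, at -0.73 to 0.04 against 0.27 to 0.77, and of 2 parathyroid genes Casr fell by 1.56 (adjusted p = 0.0396). Adipocyte markers gave 0 of 10, at -1.81 to 0.50 against -0.39 to 0.69, and lymphocyte markers 0 of 3, at -0.41 to 0.29 against -1.29 to -0.61. Skeletal muscle markers gave 0 of 12 and ran from -1.63 to 2.55 on perchlorate arrays and from -1.68 to 0.41 on control arrays, with wide scatter within both groups. Every perchlorate array lay above every control array for the other fibroblast, follicular cell and lymphocyte lists too. For the C cell and parathyroid lists every perchlorate array lay below every control array, and for adipocyte and skeletal muscle lists the groups overlapped. The part of these lists in the matrix result was not tested either.

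**Figure D5:**
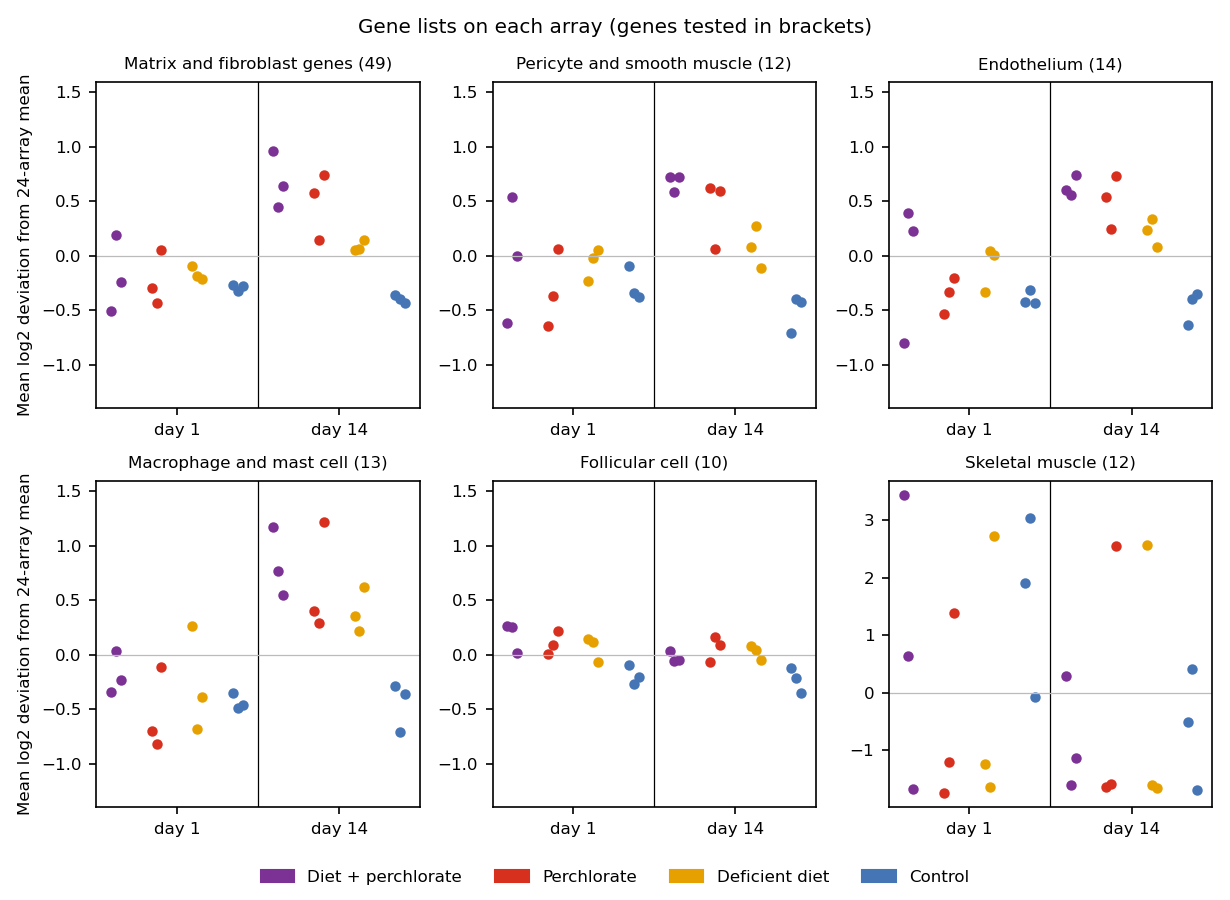
Each dot is an array, placed by the mean log2 deviation of a gene list from the 24-array mean of its genes, for day 1 and day 14, with colours for diet plus perchlorate, perchlorate, deficient diet and control. The matrix, pericyte, endothelial, macrophage and follicular cell panels separate perchlorate from control at day 14, the follicular panel narrowly. Skeletal muscle, on a wider axis, scatters within each group.

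Several probe sets were present for 24 of the 49 genes, and 16 further probe sets passed the filter. In perchlorate against control at day 14 only those of Col14a1 (above) and Timp3 (0.16 and -0.30, neither called) differed from the brightest one in call or sign. Sign changes where both fold changes were small were not counted, here or in the next comparison. In diet plus perchlorate against control at day 14 those of Mmp14 and P4ha2 differed, as given above. The Acta2 values come from the probe set that names Acta2 alone.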

How the data were processed

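The deposited table holds 1 linear intensity for each probe set (short probes for 1 transcript) and array, made in GCOS per the submitters' processing notes. RNA was extracted with Trizol and an RNeasy column and labelled with biotin, per the labels' protocols. The software version, its settings and the scaling are not given in the sources used here. No array scan, slide or batch is named, no detection calls were used, and precision is set by having 3 arrays a group.

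From these intensities log2(intensity + 16) was computed from the deposited table. Quantile normalization was applied because array medians spanned 0.56. Of 31099 probe sets 57 are controls, and those under the 40th percentile of mean signal were left out, leaving 18625. A linear model was fitted to each in limma 3.58.1 (R 4.3.3), 1 mean per group over all 24 arrays, eBayes with a trend, two-sided, with Benjamini-Hochberg adjustment, and called at an adjusted p under 0.05. The script was tested on simulated data. There were 17 comparisons, and 3 were added after seeing the data. Alternatives were the values as deposited, offsets of 1 and 64, no filter, only the groups compared, array weights, averaging the probe sets of each gene, and arrays left out.

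Symbols came from the platform annotation (20826 probe sets with 1 symbol, 436 with several, 9780 with none) and were checked by Entrez number against RefSeq, which held 20758 and changed 0. The array annotation names no build, so no gene coordinates are given beyond the RefSeq promoters. Members and lists were chosen with earlier results of these data known. Values on every array are given for up to 10 called genes with the largest change under perchlorate at day 14 and no overlap, those called with the diet (at least 3 by p), the smallest p in each of 8 roles, up to 4 by p among those lower, and up to 6 whose effect differed between conditions. Lox, Dcn, Lum and others outside this rule were chosen after their values were seen.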

Additional observations from a re-analysis of the deposited data

Results flagged for a closer look

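For 5 genes the effect of perchlorate differed between the days by a test of the difference itself, day 14 effect minus day 1 effect, in limma with Benjamini-Hochberg adjustment over all probe sets tested. Col5a2 had a difference of 2.07 (SE 0.32, adjusted p = 0.00349), with an effect of 1.83 at day 14 and of -0.24 at day 1. Col6a3 had 1.99 (SE 0.45, adjusted p = 0.0477), with 1.94 and -0.05. Fbn1 had 1.97 (SE 0.35, adjusted p = 0.0101), with 1.89 and -0.08. Eln had 1.59 (SE 0.36, adjusted p = 0.0477), with 1.52 and -0.07. Col3a1 had 1.35 (SE 0.23, adjusted p = 0.00752), with 1.16 and -0.19. Without perchlorate replicate 18 of day 1 the differences of these genes were 1.96, 2.15, 1.93, 1.76 and 1.27, all still called. Under every alternative run only 3 of the 5 calls held, those of Col5a2, Fbn1 and Col3a1, while those of Col6a3 and Eln were lost in many, as given above.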

How the results depend on the processing

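The count of genes called stayed within 1.5 times for perchlorate (21 to 30) and for diet plus perchlorate (27 to 37) at day 14 under every setting that kept all arrays of the groups compared. When 1 array was left out it ran from 10 to 25 for perchlorate and from 23 to 29 for both. For the diet at day 14 the count of 1 became 2 with values as deposited, 0 with no filter, 14 with only the groups compared, 12 with array weights, 4 without the 2 arrays that stood apart, 3 with probe sets averaged, and 0 to 0 without 1 array. For the diet over both days 3 became 1 with no filter, 11 with only the groups compared and 10 with array weights (0 to 2 without 1 array). Perchlorate within the diet at day 14 went to 0 as deposited and with no filter, to 11 with only those groups, 22 with array weights and 5 without the 2 arrays (0 to 2 without 1 array). The difference of the perchlorate effect between days went to 3 with no filter and with only those groups, and to 18 with array weights (3 to 10). Day 14 against day 1 went to 0 with only those groups and 28 with array weights for perchlorate (9 to 21), and to 11 as deposited, 33 with array weights and 30 without the 2 arrays for diet plus perchlorate (2 to 24). The difference of the diet plus perchlorate effect between days went from 0 to 18 with array weights and 3 with probe sets averaged (0 to 13), and diet plus perchlorate at day 1 went from 1 to 0 with only those groups (1 to 1). The causes of these shifts were not tested. Of 101 called gene and comparison pairs recomputed, 37 held under every alternative, 64 were lost under at least 1 and 0 changed sign, and 31 of 138 uncalled pairs gained a call. As deposited, the median of all probe sets was 0.13 for the diet at day 14, against -0.02 after normalization, and 0.06 for perchlorate, against -0.04. No paired analysis was possible because the titles give every sample a number of its own, shared by no other group.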
